A study of Caenorhabditis elegans with 50 samples.

Results

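The genes lys-1 to lys-10 encode the protist-type lysozymes of the nematode Caenorhabditis elegans. All 10 were found by name in the gene table. They lie in 8 of its 33458 entries, because lys-4, lys-5 and lys-6 share 1 entry whose counts cannot be divided among them, written lys-4/5/6 here. The series holds 50 libraries of polyadenylated RNA from whole young adults on day 1 of adulthood, 5 for each of 10 strains. Replicates are numbered 0 to 4, and the design text calls the 5 of a strain biological samples without saying what a number shares between strains.

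Of the 10 strains, 7 share a growth scheme of 15 °C through the first 72 hours followed by 20 °C. They comprise the wild type, written WT, the single mutants daf-2(e1370) and daf-2(e1368), and 4 strains that join either allele to daf-16(mg54) or to daf-16(mu86). Eggs of daf-2(e1370) were laid 6 hours ahead of the controls to offset its slower growth, and the labels name no such lead for its doubles. The remaining 3 strains carry glp-1(e2141), alone or with one of the same daf-16 alleles, and were kept at 25 °C for 48 hours, which leaves these animals without germ cells. WT animals of that temperature were not analysed here. A daf-16 double of a single mutant is called its mg54 double or its mu86 double.

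Lysozymes cut the sugar backbone of bacterial peptidoglycan. In C. elegans, which feeds on bacteria, several of them are made in the intestine, where they serve digestion and defence. DAF-16 is the worm FOXO transcription factor. It is held out of the nucleus by signalling through the insulin receptor homologue DAF-2 and enters intestinal nuclei when that signalling falls or when the germline, which needs the Notch receptor GLP-1, is lost. The mu86 allele is a large deletion, and mg54 is a premature stop that affects some of the daf-16 isoforms. lys-7 and lys-8 are long known as genes whose RNA depends on DAF-16.

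On the ce10 build the table places lys-1 on chromosome V from 10277882 to 10278973, lys-2 from 10280342 to 10281890 and lys-3 from 10282095 to 10283788. These 3 genes are neighbours. lys-7 lies elsewhere on chromosome V, from 3481477 to 3482596. The lys-4/5/6 entry spans chromosome IV from 11621469 to 11628080, and lys-10 lies on the same chromosome from 8332812 to 8333505. The spans given for lys-8 (chromosome II, 5493901 to 5633311) and lys-9 (chromosome I, 12430047 to 12478982) are those of bundles of 46 and 16 entries, not of the genes alone.

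Library totals ran from 19893281 to 34247043 fragments in the 35 libraries of WT and the daf-2 strains, apart from daf-2(e1370) replicate 2 with 2367909, and from 13822805 to 23811780 in the 15 glp-1 libraries. The daf-16 entry stood at 207.6 to 221.9 CPM in WT, where CPM stands for fragment counts per 1e+06 of the scaled library. It was at 94.5 to 113.8 CPM in the mg54 doubles of both daf-2 alleles, while the mu86 doubles ranged from 148 to 233 CPM with daf-2 and from 377 to 505 CPM with glp-1(e2141), so RNA counted over the whole gene does not check the deletion. In the mg54 and mu86 doubles of daf-2(e1370), replicates 0 and 1 stood apart from the other libraries. Their summed CPM of 30 sperm marker entries was 202 and 56.7 in the mg54 double and 447 and 288 in the mu86 double, against 1313 to 1911 in replicates 2 to 4. These counts come from whole animals, in which fewer cells of a type and less RNA per cell cannot be told apart.

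The lysozymes differed widely in level. Per kilobase of exon, lys-1 was the highest in WT at 225 CPM, ahead of lys-8 at 143, lys-4/5/6 at 141 for the mean of its 3 genes, lys-2 at 44.5 and lys-7 at 27.1. In daf-2(e1370) this order changed, with lys-7 first at 371.5 CPM per kilobase, above lys-8 at 344 and lys-1 at 323. In glp-1(e2141) lys-1 led at 1935, before lys-2 at 1018, lys-8 at 867.5 and lys-7 at 343. lys-3 and lys-10 stayed under 1 CPM per kilobase in every strain kept at 20 °C. lys-9 was close to absent from the libraries, with 9 fragments in all 50 and none in 43 of them, where a count of 0 allows up to 0.0876 to 1.27 CPM. It did not pass the filter on low counts, and without that filter it was called in no comparison. Of the 8 entries, 7 were tested among WT and the daf-2 strains, and 6 among the glp-1 strains, where lys-10 fell under the filter on low counts.

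**Figure D1:**
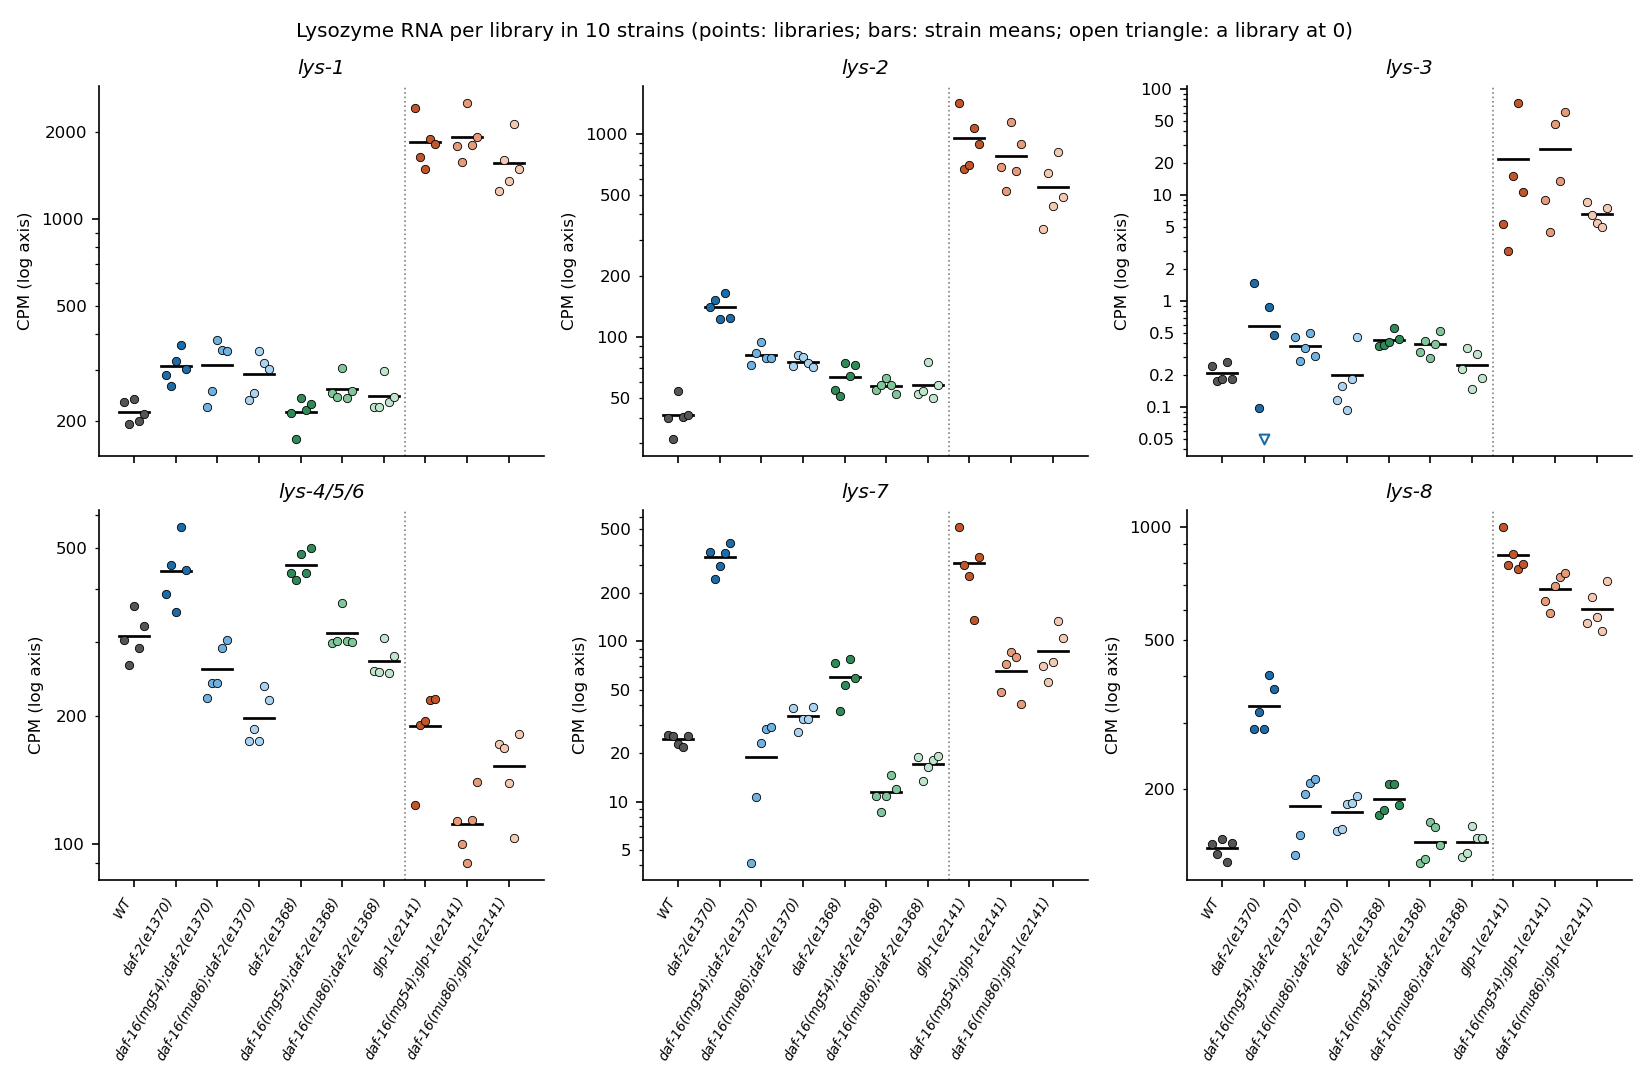
CPM of 6 lysozyme entries on a log axis, with 1 point for each library, a bar at the arithmetic mean of each strain and an open triangle, drawn at 0.05 CPM, for the 1 library at 0. The dotted line parts the strains kept at 20 °C from the glp-1 strains kept at 25 °C. lys-7 is high in daf-2(e1370) and glp-1(e2141) (means of 335 and 310 CPM) and lower in all doubles. lys-1 differs mainly between the glp-1 strains and the others, where genotype, germline and temperature cannot be told apart.

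The first question was which lysozymes had more RNA in a long-lived mutant than in its daf-16 doubles. lys-7, an intestinal lysozyme that takes part in defence against bacteria, had the largest difference of the 7 entries tested. Its levels in daf-2(e1370) were 363, 246, 296, 358 and 412 CPM in replicates 0 to 4. In the mg54 double they were 4.13, 10.6, 23.2, 28.25 and 29.1 CPM, and in the mu86 double 38.65, 27.1, 32.9, 32.9 and 38.8 CPM. Every daf-2(e1370) library was above every double. lys-7 RNA was 4.14 ± 0.32 higher on the log2 scale than in the mg54 double (± SE from edgeR's quasi-likelihood test, adjusted p = 1.13e-11), or 17.6-fold, which ranked 70th from the top among 11774 entries. Against the mu86 double the difference was 3.30 ± 0.30 (adjusted p = 5.69e-10), or 9.85-fold, ranked 107th. The 2 low libraries of the mg54 double, replicates 0 and 1, are among the 4 that stood apart in sperm markers. Without these 4 libraries the differences were 3.66 and 3.27 (adjusted p = 1.48e-13 and 6.84e-13).

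In the weaker allele daf-2(e1368), lys-7 was at 73.3, 36.97, 53.4, 77.55 and 58.7 CPM. The mg54 double had 10.9, 8.60, 10.9, 14.7 and 12.04 CPM, and the mu86 double 19.04, 13.4, 16.4, 18.2 and 19.3 CPM. The groups again did not overlap, at a lower level than in daf-2(e1370). lys-7 rose by 2.39 ± 0.30 over the mg54 double (adjusted p = 1.62e-06) and by 1.80 ± 0.29 over the mu86 double (adjusted p = 9.14e-05).

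In germline-less glp-1(e2141), lys-7 was at 518, 301.5, 257, 136 and 337 CPM, with the largest SD of any strain (310 ± 139 CPM, SD, n = 5). Its mg54 double had 48.15, 72.55, 85.7, 80.2 and 40.4 CPM, and its mu86 double 70.3, 55.5, 74.3, 133 and 105 CPM. The lowest single mutant library, replicate 3 at 136 CPM, lay just above the highest double library at 133 CPM. The differences were 2.24 ± 0.33 (adjusted p = 0.00161) and 1.82 ± 0.33 (adjusted p = 0.00674). They ranked 38th and 47th from the top of 10391 entries.

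lys-8, also named among the genes that rise during bacterial infection, changed less but in the same direction. Unlike those of the other lysozyme entries, its deposited counts were mostly fractional (3 of 50 whole), so they may hold shared fragments. In daf-2(e1370) lys-8 levels were 288, 320.5, 288, 402 and 368 CPM, against 133 to 212 CPM in the mg54 double and 154 to 192 CPM in the mu86 double. The libraries did not overlap, and the differences were 0.90 ± 0.11 (adjusted p = 1.81e-07) and 0.95 ± 0.11 (adjusted p = 5.63e-08). In daf-2(e1368) it stood at 170.5 to 206 CPM, against 127 to 163 and 132 to 159 CPM in the mg54 and mu86 doubles. Those differences, 0.38 ± 0.11 in each case, passed narrowly (adjusted p = 0.0477 and 0.0395). Their call ended without any 1 of 8 of the 10 libraries for mg54 (0.0521 to 0.166) and of 9 of the 10 for mu86 (0.0532 to 0.157). In glp-1(e2141) lys-8 was at 771 to 1000 CPM, against 590 to 754 and 529 to 718 CPM, and passed over the mu86 double (0.48 ± 0.11, adjusted p = 0.0221) and not over the mg54 double (0.30 ± 0.11, adjusted p = 0.156). The mu86 call ended without replicate 0 or 2 of either strain (0.0526 to 0.0677), with only those strains fitted (0.063) and under a replicate block (0.0808).

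The lys-4/5/6 entry stood at 390.4, 456.5, 354, 562.3 and 444.7 CPM in daf-2(e1370). The mg54 double had 222 to 303 CPM and the mu86 double 175 to 237 CPM, both below every single mutant library. The differences were 0.77 ± 0.11 (adjusted p = 2.81e-06) and 1.16 ± 0.11 (adjusted p = 1.28e-09). In daf-2(e1368) the entry was at 420 to 501 CPM, close to its level in daf-2(e1370), and exceeded the doubles by 0.54 ± 0.11 and 0.76 ± 0.11 (adjusted p = 0.00251 and 1.84e-05). In glp-1(e2141) it reached 124 to 220 CPM, against 89.9 to 140 CPM in the mg54 double (0.77 ± 0.18, adjusted p = 0.0277) and 103 to 182 CPM in the mu86 double (0.31 ± 0.18, adjusted p = 0.459). The mg54 call ended without any 1 of glp-1(e2141) replicates 2, 3 and 4 or of double replicates 0, 1 and 3 (0.0623 to 0.0789), and under a replicate block (0.0682).

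lys-2, the middle gene of the chromosome V row, was at 140, 151, 121.7, 164 and 124 CPM in daf-2(e1370). It had 72.4 to 93.8 CPM in the mg54 double and 71.1 to 81.1 CPM in the mu86 double. No libraries overlapped, and it rose by 0.79 ± 0.12 and 0.89 ± 0.12 (adjusted p = 8.18e-06 and 9.22e-07). In daf-2(e1368), with 51.4 to 74.4 CPM, it overlapped both doubles and did not pass (0.15 ± 0.12 and 0.14 ± 0.12, adjusted p = 0.844 and 0.748). In glp-1(e2141) it was at 667 to 1418 CPM and did not pass against the mg54 double (0.28 ± 0.26, adjusted p = 0.688) or the mu86 double (0.80 ± 0.27, adjusted p = 0.136). The last difference passed (0.99, adjusted p = 0.0459) without replicate 3 of the mu86 double.

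lys-1, which is also induced in bacterial infection, was called against no double. In daf-2(e1370) it stood at 310 ± 39.5 CPM (SD, n = 5), with 313 ± 69.3 in the mg54 double and 292 ± 46.7 in the mu86 double. The differences were -0.02 (95% interval -0.26 to 0.23) and 0.09 (-0.16 to 0.34), with adjusted p of 0.945 and 0.68. An interval of this width leaves out changes of the size seen for lys-2. In daf-2(e1368) lys-1 was at 173.5 to 240.1 CPM, just below all libraries of the mg54 double at 240.3 to 307 CPM, without passing (-0.27 ± 0.13, adjusted p = 0.447), and overlapped the mu86 double (-0.19 ± 0.13, adjusted p = 0.646). In glp-1(e2141) the differences were -0.05 ± 0.16 and 0.24 ± 0.16 (adjusted p = 0.924 and 0.569).

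lys-3 and lys-10 rest on few fragments in these strains. lys-3 had 1.48, 0.0988, 0, 0.881 and 0.479 CPM in daf-2(e1370), the third value from the shallow replicate 2, where 0 fragments allow up to 1.27 CPM. It passed against the mu86 double (1.78 ± 0.45, adjusted p = 0.00394), with overlapping libraries, and did not against the mg54 double (0.87 ± 0.43, adjusted p = 0.138). Without daf-2(e1370) replicate 0 the mu86 difference was 1.18 and its call ended (adjusted p = 0.0613), and the mg54 difference was 0.28 (adjusted p = 0.658). Without replicate 1 the mg54 difference passed at 1.17 (adjusted p = 0.0242). lys-10 had at most 23 fragments in any library and passed against no double.

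In counts, 4 of 7 entries tested rose in daf-2(e1370) over its mg54 double, where 11.8% of all entries tested rose and 22.3% changed. Over its mu86 double 5 of 7 rose, against 11.2% and 21.5%. In daf-2(e1368) 3 of 7 rose over each double, where 1.7% of all entries rose over the mg54 and 2.51% over the mu86 double, with 2.83% and 4.24% changed. In glp-1(e2141) 2 of 6 rose over each double, against 2.36% and 1.97%, with 3.04% and 3.1% changed. None fell in any of these comparisons. The median difference of the entries from the mg54 and mu86 doubles was 0.79 and 0.95 for daf-2(e1370), 0.38 from either double for daf-2(e1368), and 0.29 and 0.64 for glp-1(e2141), while the median of all entries lay between -0.01 and 0.02 in each.

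**Figure D2:**
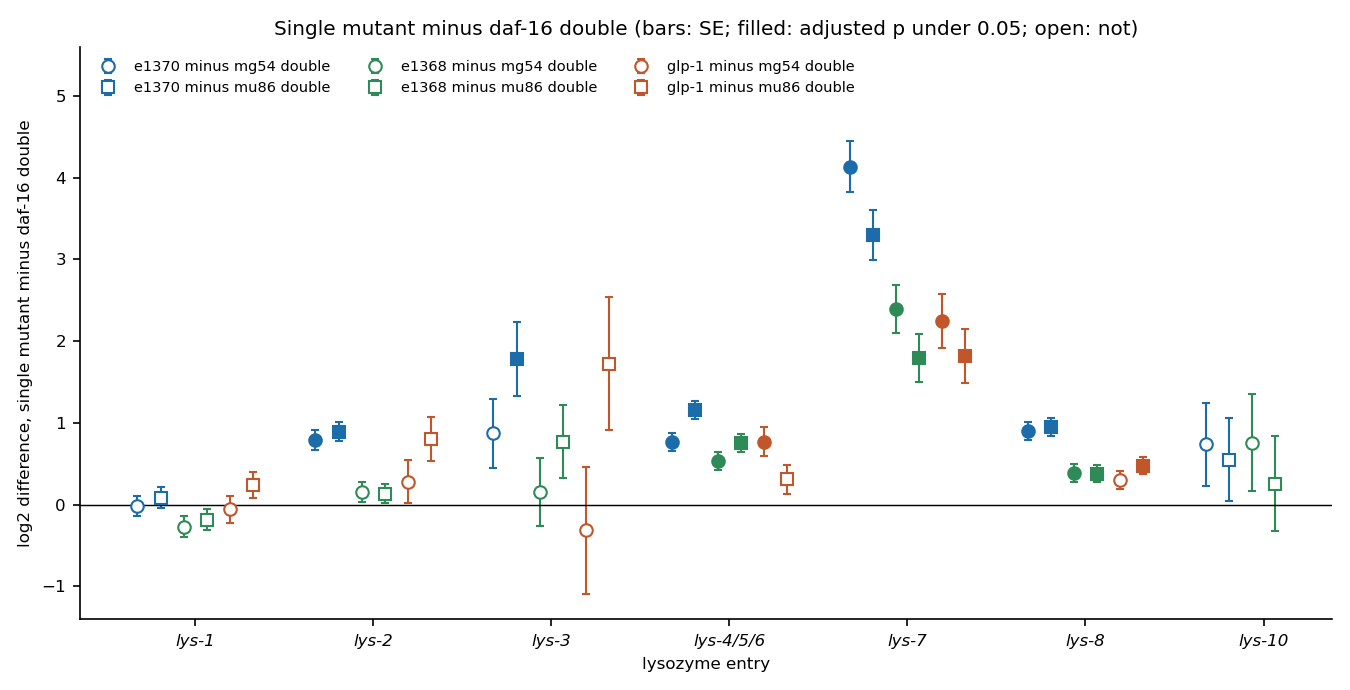
Log2 difference of each lysozyme entry between a single mutant and its mg54 (circles) or mu86 (squares) double, in daf-2(e1370) (blue), daf-2(e1368) (green) and glp-1(e2141) (orange), with SE bars and filled symbols where adjusted p was under 0.05. lys-7 lies between 1.80 and 4.14 in all 6 comparisons, and lys-1 lies near 0.

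**Figure D3:**
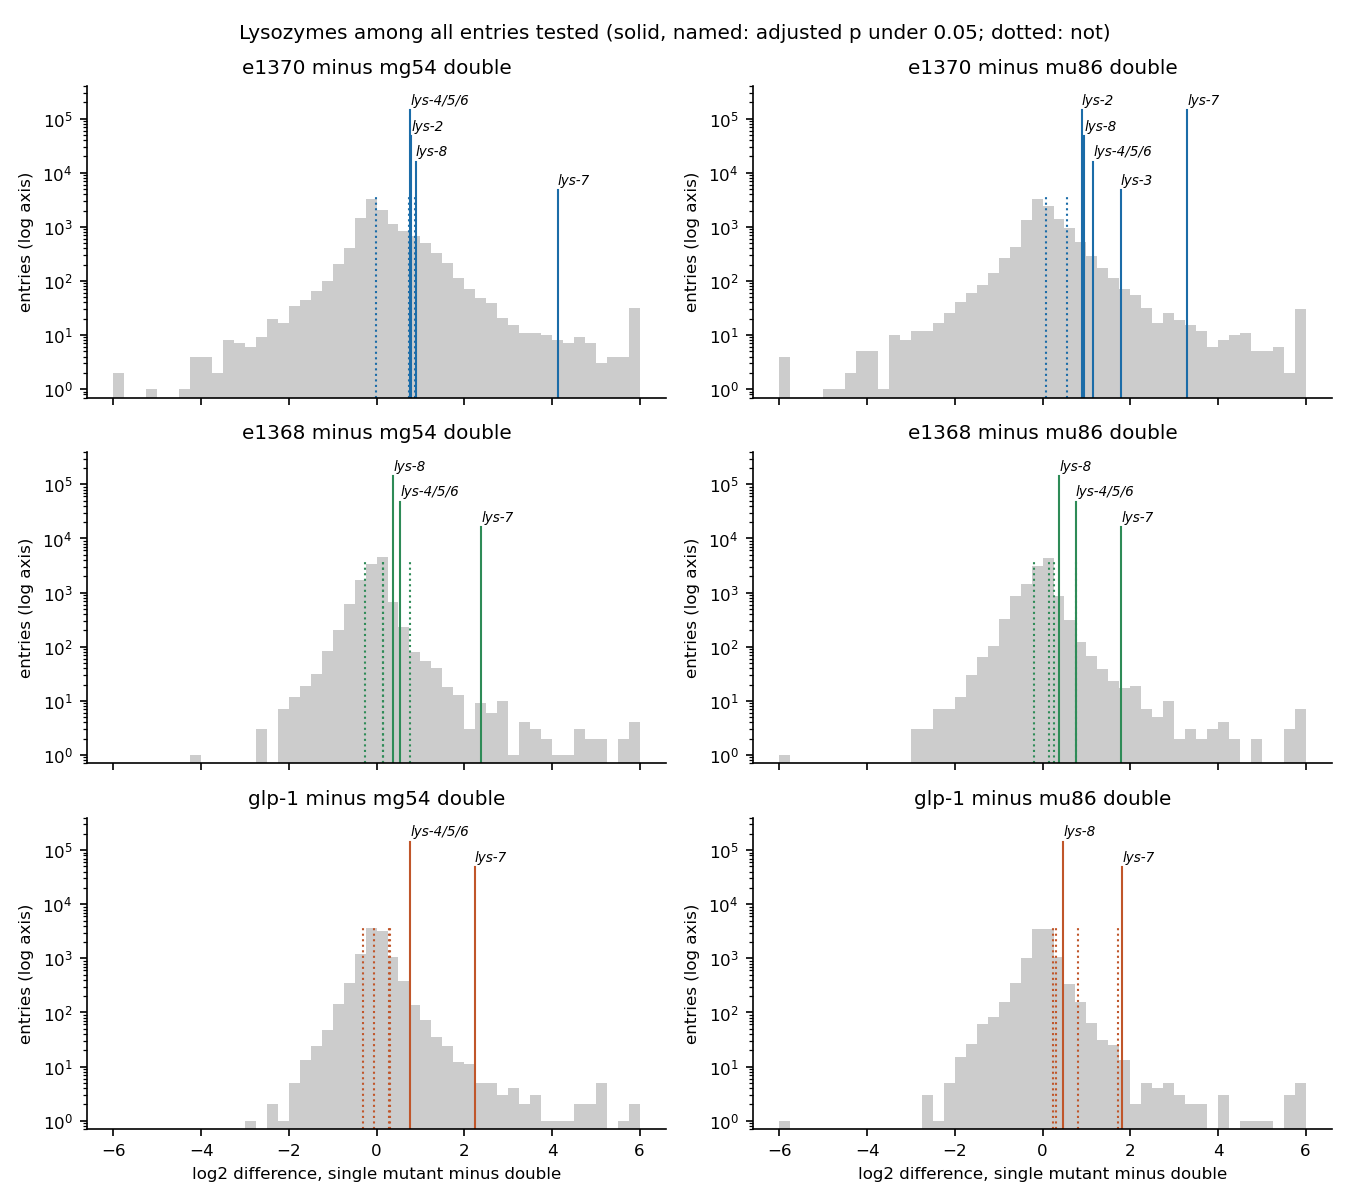
Number of entries on a log axis by log2 difference between single mutant and double in the same 6 comparisons, in grey, with the lysozymes as lines, solid and named where adjusted p was under 0.05 and dotted otherwise. Entries beyond 6 in size are pooled in the outermost bars; lys-7 lies in the right tail of each distribution, ranked between 38th and 107th from the top.

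The second question was whether the daf-16 effect, defined as the log2 level of a single mutant less the average of its mg54 and mu86 doubles, differed between backgrounds. For lys-7 it was larger in daf-2(e1370) than in daf-2(e1368) by 1.63 ± 0.35 (adjusted p = 0.00372). lys-2 differed by 0.70 ± 0.15 (adjusted p = 0.00339) and lys-8 by 0.54 ± 0.13 (adjusted p = 0.0135). Thus 3 of 7 entries had a larger effect in the stronger allele, where 3.22% of all entries did and 4.71% differed in either direction. With the replicate number as a block, lys-4/5/6 (0.32, adjusted p = 0.0422) and lys-1 (0.28, adjusted p = 0.0442) passed too.

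Against glp-1(e2141), in a fit of all 50 libraries, the effect in daf-2(e1370) was larger for lys-7 by 1.69 ± 0.35 (adjusted p = 8.44e-04) and for lys-8 by 0.52 ± 0.12 (adjusted p = 0.00332). These are 2 of 7 entries, against 4.38% of all entries that were larger and 7.24% that differed. Between daf-2(e1368) and glp-1(e2141) edgeR called 0 of 7 entries, DESeq2 also called 0, and 0 had an unadjusted p under 0.05, where 0.867% of all entries differed. For lys-7 that difference was 0.13 with a 95% interval from -0.55 to 0.81. Temperature and germline differ between the daf-2 and glp-1 backgrounds, so their part in these differences cannot be told apart from that of genotype.

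The mg54 and mu86 doubles were then compared with each other. In all 3 backgrounds mean lys-7 was lower with mg54, at 19.1 against 34.04 CPM with daf-2(e1370), 11.4 against 17.3 CPM with daf-2(e1368) and 65.4 against 87.7 CPM with glp-1(e2141). The libraries overlapped each time, and no difference passed in edgeR's test (-0.84 ± 0.28, -0.60 ± 0.29 and -0.42 ± 0.32, adjusted p = 0.65, 1 and 1). Without replicates 0 and 1 of the daf-2(e1370) doubles the first was -0.39. Of all lysozyme entries, 0 were called between the alleles by edgeR or DESeq2 in each background, and 2, 1 and 2 had an unadjusted p under 0.05, where 0.204%, 0.0934% and 0.0192% of all entries were called. In daf-2(e1370) the 2 were lys-7 and lys-4/5/6, the latter higher with mg54 by 0.38 ± 0.11 (adjusted p = 0.273). With glp-1(e2141) the 2 were lys-3 and lys-4/5/6, the latter there lower with mg54 (-0.46 ± 0.18, adjusted p = 0.953).

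The third question was how each mutant compared with WT. All 7 entries tested were higher in daf-2(e1370), where 9.84% of all entries rose and 18.2% changed. lys-7 was at 22.02 to 26.2 CPM in WT, 3.78 ± 0.31 below daf-2(e1370) (adjusted p = 5.63e-11), a 13.7-fold difference. lys-2, at 31.4 to 54.3 CPM in WT, rose 3.39-fold (1.76 ± 0.12, adjusted p = 1.85e-12), and lys-8, at 128 to 147 CPM, rose 2.41-fold (1.27 ± 0.11, adjusted p = 1.87e-10). lys-1 at 196 to 239 CPM and lys-4/5/6 at 264 to 365 CPM rose by 0.52 ± 0.13 and 0.51 ± 0.11 (adjusted p = 0.003235 and 8.75e-04), the latter with overlapping libraries. The rises of the sparse lys-3 (1.69 ± 0.45, adjusted p = 0.00716) and lys-10 (1.66 ± 0.55, adjusted p = 0.0315) were less firm. That of lys-3 fell to 1.09 (adjusted p = 0.0947) without daf-2(e1370) replicate 0, and that of lys-10 ended when replicate 0, 1 or 3 of daf-2(e1370) was left out, or any 1 of WT replicates 0, 2, 3 and 4 (0.0548 to 0.102).

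In daf-2(e1368) 4 of 7 entries were higher than in WT, against 1.24% of all entries that rose and 2.06% that changed. lys-7 rose by 1.29 ± 0.29 (adjusted p = 0.00808), lys-2, with overlapping libraries, by 0.61 ± 0.12 (adjusted p = 0.0021), lys-4/5/6 by 0.56 ± 0.11 (adjusted p = 0.00232) and lys-8 by 0.44 ± 0.11 (adjusted p = 0.0232). The lys-8 call ended when replicate 2 or 3 of daf-2(e1368) was left out, or any 1 of WT replicates 0, 1 and 3 (0.0512 to 0.105).

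The 2 daf-2 alleles differed in 4 of 7 entries, all higher in daf-2(e1370), where 5.67% of all entries were higher and 8.43% differed. lys-7 was 2.48 ± 0.29 higher (adjusted p = 3.14e-07), lys-2 1.15 ± 0.12 (adjusted p = 4.18e-08), lys-8 0.83 ± 0.11 (adjusted p = 2.12e-06) and lys-1 0.53 ± 0.13 (adjusted p = 0.00561). lys-4/5/6 showed no such step (-0.05, 95% interval -0.26 to 0.17, adjusted p = 0.829). lys-10 did not pass (1.55 ± 0.53, adjusted p = 0.0667), but did with the replicate block (1.49, adjusted p = 0.0279) and without replicate 2 of either strain (0.0458 and 0.0491).

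What remained of the difference from WT in the daf-16 doubles varied by gene. In the mean of both daf-2(e1370) doubles no difference from WT was found for lys-7 (0.06 ± 0.25, 95% interval -0.42 to 0.54), and without replicates 0 and 1 of the doubles it was 0.32 (adjusted p = 0.513). This mean joins 2 unlike doubles. Every mu86 double library, at 27.1 to 38.8 CPM, was above every WT library, at 22.02 to 26.2 CPM. The mg54 double ran from 4.13 to 29.1 CPM and overlapped WT. Neither double was tested alone against WT. lys-1 stayed above WT by 0.48 ± 0.11 (adjusted p = 0.0153), with overlapping libraries, beside 0.52 in daf-2(e1370) itself. lys-2 stayed above WT by 0.92 ± 0.11 (adjusted p = 1.49e-06), with no overlap with WT. lys-4/5/6 was below WT by 0.45 (log2 difference -0.45 ± 0.09, adjusted p = 0.005755), with overlapping libraries. These 2 rises and 1 fall among 7 stand beside 0.756% of all entries that rose, 0.544% that fell and 1.3% called. lys-8 was higher by 0.35 ± 0.10 and did not pass (adjusted p = 0.0706), although it passed with replicates 0 and 1 of the doubles left out (0.49, adjusted p = 2.62e-04), with DESeq2 (0.35, adjusted p = 0.0154) and under a replicate block (0.33, adjusted p = 0.00385). The lys-4/5/6 fall did not pass without those libraries (-0.36, adjusted p = 0.0591). The lys-1 rise ended without any 1 of WT replicates 1, 3 and 4 (0.056 to 0.062). When these strains were fitted with WT alone, lys-1 and lys-4/5/6 did not pass (adjusted p = 0.163 and 0.0545).

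In the doubles of daf-2(e1368) only lys-2 was called against WT (0.47 ± 0.11, adjusted p = 0.0277), 1 of 7 beside 0.178% of all entries that rose and 0.425% called. That call ended without any 1 of WT replicates 0, 1, 3 and 4 or replicate 2 of either double (0.0512 to 0.189). lys-7 had 8.60 to 19.3 CPM in these doubles, below every WT library, but the difference of -0.80 ± 0.24 did not pass (adjusted p = 0.263). When these strains were fitted with WT alone it did (-0.79, adjusted p = 0.0014), and lys-2 did not (0.47, adjusted p = 0.13). lys-4/5/6 was near WT (-0.09 ± 0.09, adjusted p = 1).

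**Figure D4:**
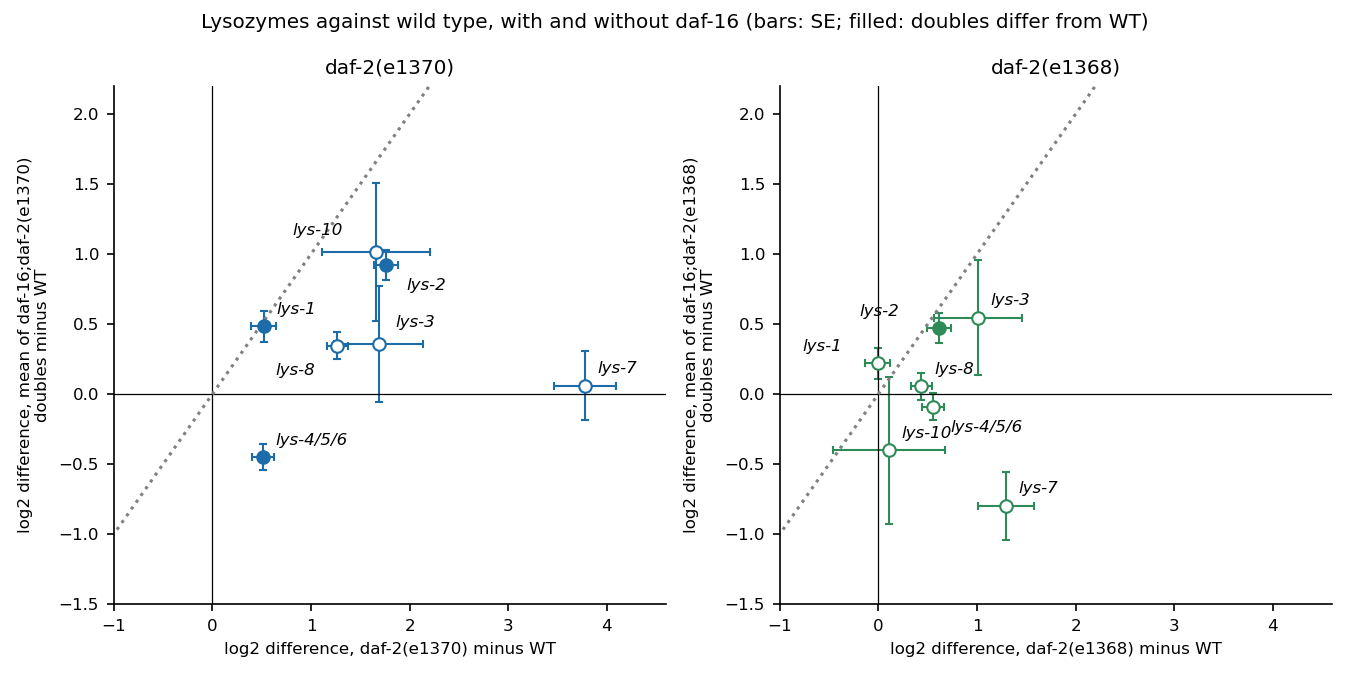
Log2 difference from WT of each daf-2 single mutant (horizontal axis) and of the mean of its 2 daf-16 doubles (vertical axis) for 7 lysozyme entries, with SE bars, filled where the doubles differed from WT at adjusted p under 0.05. The dotted line marks equal differences: for daf-2(e1370) lys-1 lies near it (0.52 and 0.48), lys-2 below it (1.76 and 0.92) and lys-7 at the far right on the zero line (3.78 and 0.06).

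The glp-1 strains, raised at 25 °C, had other levels of most lysozymes than WT at 20 °C. Genotype, germline and temperature cannot be told apart here and no test was made. Scaled over all 50 libraries, glp-1(e2141) and WT had means of 1982 and 208 CPM for lys-1, 1015 and 39.9 CPM for lys-2, 24.4 and 0.205 CPM for lys-3, 327 and 23.6 CPM for lys-7, and 897 and 134 CPM for lys-8. Only lys-4/5/6 was lower, at 203 against 299 CPM, and the libraries of the 2 strains did not overlap for any of these entries. The directions were the same for both glp-1 doubles. The median entry was higher in glp-1(e2141) by 0.48 on the log2 scale with this scaling. Beside these levels, the summed CPM of 11 intestine marker entries ran from 6452 to 8919 in glp-1(e2141) and from 2698 to 4144 in WT, and that of 14 oogenic germline marker entries from 26.8 to 33.3 and from 5116 to 8038. Of the intestine markers vha-6 was listed at 0 in all 50 libraries. The sums of 11 hypodermis entries (7082 to 10460 against 1542 to 2443 CPM), 13 neuron entries (446 to 587 against 147 to 177 CPM) and 3 coelomocyte entries (59.1 to 72.7 against 12.96 to 17.01 CPM) were likewise higher in every glp-1(e2141) library than in WT. The same held for 10 body wall muscle entries (6721 to 10710 against 3969 to 4574 CPM). The sum of 10 pharynx entries overlapped between the strains (32.4 to 171.1 against 54.8 to 88.2 CPM). sqt-1 of the hypodermis list and unc-64 of the neuron list were at 0 throughout. The part of the marker levels in the lysozyme levels was not tested.

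lys-3 had its highest and most uneven levels in the glp-1 strains. It was at 5.30, 2.98, 15.3, 74.3 and 10.8 CPM in glp-1(e2141), at 8.90, 4.46, 46.7, 13.6 and 61.3 CPM in the mg54 double and at 8.60, 6.44, 5.47, 4.96 and 7.51 CPM in the mu86 double. The 3 highest libraries, at 46.7 to 74.3 CPM, were in 2 strains, and the next had 15.3 CPM. No comparison among these strains passed (-0.31 ± 0.78 and 1.73 ± 0.81 against the mg54 and mu86 doubles, 2.04 ± 0.82 between them, adjusted p = 0.904, 0.338 and 1). Without glp-1(e2141) replicate 3 the first 2 were -1.66 and 0.38. That library also had the lowest lys-7 of its strain.

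lys-1 and lys-2 varied together among libraries of a glp-1 strain. In each of the 3 strains the same library was highest in both, with 2420 and 1418 CPM in glp-1(e2141) replicate 0, 2532 and 1147 CPM in mg54 double replicate 2, and 2139 and 812 CPM in mu86 double replicate 3. Deviations from the strain mean (log2 of CPM with a pseudocount of 0.5) gave Pearson's r = 0.957 and Spearman's rho = 0.971 over the 15 libraries (permutation p = 1e-05, the smallest that 100000 resamples can give, adjusted p = 2.1e-04 for both over 21 relations), and r = 0.944 without the 2 libraries farthest from the median of lys-1. Among the 35 libraries kept at 20 °C the same relation gave r = 0.527 and rho = 0.466 (permutation p = 5.6e-04 and 0.00715, adjusted p = 0.00168 and 0.0179 over 15 relations), and r = 0.481 without the 2 farthest. The same 3 libraries had the lowest summed intestine markers of their strains, at 6146, 6823 and 6050 CPM. They also had the lowest summed CPM of 10 pharynx marker entries, at 30.9, 59.2 and 34.8, and the last 2 of them the lowest of 10 body wall muscle entries, at 6023 and 4436. Summed hypodermis markers went the other way. At 8536, 9160 and 7003 CPM, they were the highest or next to highest of their strains in these libraries. phat-1 and phat-2 of the pharynx list were at 0 in all 50 libraries. Over all 15, intestine markers ran against lys-1 (r = -0.86, rho = -0.85, permutation p = 5e-05 and 4e-04, adjusted p = 5.25e-04 and 0.0028) and lys-2 (r = -0.887, rho = -0.879, p = 1.3e-04 and 1.9e-04, adjusted p = 9.1e-04 and 0.00199). Leaving out the 2 farthest libraries gave r = -0.797 and -0.839. For lys-7 and lys-8 no such relation was found (r = -0.072 and -0.081, rho = -0.186 and -0.114, permutation p of r = 0.808 and 0.796, adjusted p = 0.808 for both). Among the 35 libraries kept at 20 °C the sign for lys-1 was the opposite (r = 0.431, rho = 0.441, permutation p = 0.0185 and 0.0168, adjusted p = 0.0278 and 0.0316, and r = 0.451 without the 2 farthest). There lys-2 gave r = -0.039 and rho = -0.066 (permutation p = 0.837 and 0.733, adjusted p = 0.837 and 0.733), whereas lys-8 rose with the intestine markers (r = 0.659, rho = 0.655, permutation p = 3.4e-04 and 6.5e-04, adjusted p = 0.0015 and 0.00325, and r = 0.64 without the 2 farthest). The daf-2(e1370) double libraries that stood apart in sperm markers are among the 35. Their lys-1 was at 224 to 255 CPM, against 303 to 383 CPM in the other libraries of those doubles. Their lys-8 was at 133 to 157 against 182 to 212 CPM. Their intestine markers were lower in the mg54 double (3559 and 3578 against 3867 to 5202 CPM) and overlapped in the mu86 double. No 20 °C relation was computed with all of these libraries left out. The part of any marker list in these relations was not tested. With 5 libraries a strain, these relations were not computed within single strains, and whether an unnamed batch lies behind them was not tested.

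**Figure D5:**
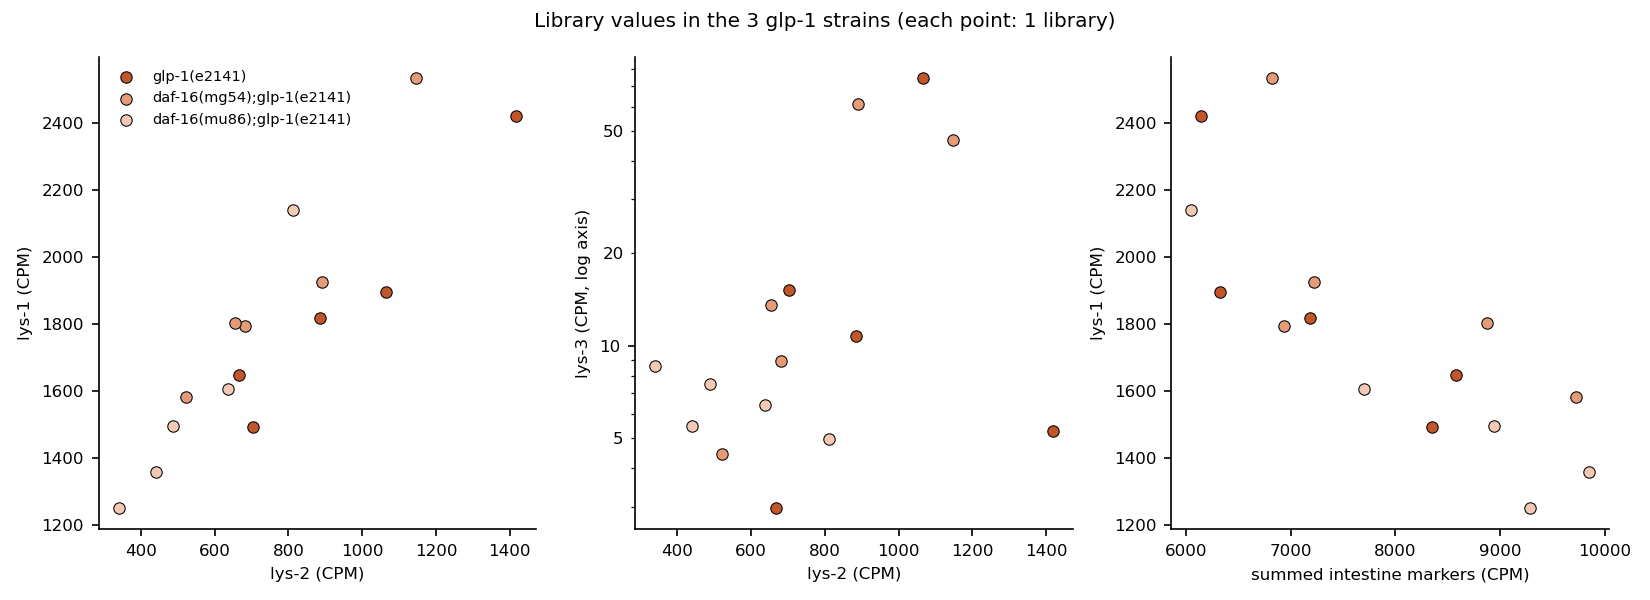
Library values in glp-1(e2141) and its 2 daf-16 doubles, 1 point per library, in CPM: lys-1 against lys-2 (left), lys-3 on a log axis against lys-2 (middle) and lys-1 against the summed intestine markers (right). lys-1 and lys-2 rise together from 1253 and 340 CPM, the 3 highest lys-3 values are 46.7, 61.3 and 74.3 CPM, and the libraries with most lys-1 have the fewest intestine marker counts.

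Over the strain means of WT and the daf-2 strains, the lysozymes did not share 1 pattern. Pearson's r over 7 strain means of log2 CPM was 0.926 between lys-7 and lys-8 and 0.924 between lys-2 and lys-8, but 0.251 between lys-1 and lys-7 and -0.31 between lys-1 and lys-4/5/6. By the same measure the entries most like lys-7 were T21C12.8 (0.992), ttm-2 (0.99) and C39B5.14 (0.989). Those most like lys-8 were maa-1 (0.997), npa-1 (0.994) and K04A8.1 (0.992). For lys-4/5/6 they were led by T24B8.3 (0.991) and cki-1 (0.978), for lys-2 by ZK418.7 (0.985) and for lys-1 by sto-3 (0.991). With 7 points such values are common: 439 of 9927 entries exceeded 0.9 with lys-7 and 446 with lys-8, but 22 with lys-1. The points share libraries and these are descriptions, with no test.

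Other secreted antibacterial genes were set beside the lysozymes. Over the mg54 and mu86 doubles, 11.8% and 11.2% of all entries rose in daf-2(e1370), and 22.3% and 21.5% changed. The shares that rose were 1.7% and 2.51% in daf-2(e1368), and 2.36% and 1.97% in glp-1(e2141). Of 14 saposin-like entries tested, which encode pore-forming proteins related to amoebapores, 7 rose in daf-2(e1370) over each double and 0 fell, led by spp-9 (8.87 ± 0.77 and 8.41 ± 0.74, adjusted p = 1.58e-10 and 1.97e-10). In daf-2(e1368) 3 and 5 rose and 0 fell, again with spp-9 first (3.48 ± 0.55 and 4.44 ± 0.62, adjusted p = 9.31e-05 and 9.5e-06). In glp-1(e2141) 2 and 1 of 13 rose, and spp-2 was called with both alleles (2.0 ± 0.34 and 1.70 ± 0.34, adjusted p = 0.00456 and 0.0124). Of 3 invertebrate-type lysozyme entries, the worm's other lysozyme class, 1 and 2 rose and 1 fell in daf-2(e1370), with ilys-4 the second that rose over the mu86 double. The entry shared by ilys-2 and ilys-3 rose by 2.43 ± 0.52 and 2.61 ± 0.53 (adjusted p = 7.57e-04 and 3.5e-04). ilys-5 fell by 0.48 and 0.51 there (adjusted p = 0.00284 and 0.00133) but rose by 0.60 ± 0.11 and 0.56 ± 0.11 in glp-1(e2141) (adjusted p = 0.0054 and 0.00922). The antimicrobial peptide entry shared by abf-1 and abf-2 was the 1 of 8 that rose in daf-2(e1370) (2.51 ± 0.30 and 3.12 ± 0.31, adjusted p = 8.11e-08 and 1.67e-09), and the 1 of 10 in glp-1(e2141) (1.15 ± 0.24 and 1.13 ± 0.24, adjusted p = 0.0175 and 0.0172).

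Signalling genes known to act on lysozyme or other immune RNA were counted in the same way. Of all entries, 22.3% and 21.5% changed over the mg54 and mu86 doubles of daf-2(e1370). The shares were 2.83% and 4.24% in daf-2(e1368), and 3.04% and 3.1% in glp-1(e2141). Counts of 0 among so few entries lie close to the shares of daf-2(e1368) and glp-1(e2141). Of 4 entries of the p38 MAP kinase pathway, vhp-1, a phosphatase that restrains p38-type kinases, rose in daf-2(e1370) (0.50 ± 0.12 and 0.68 ± 0.12, adjusted p = 0.00235 and 6.06e-05). In daf-2(e1368) and glp-1(e2141) edgeR and DESeq2 called 0 of the 4, and 1 had an unadjusted p under 0.05 over each double of daf-2(e1368) and 0 over those of glp-1(e2141). Of 8 entries of the DBL-1 TGF-beta pathway edgeR and DESeq2 called 0 in all 6 comparisons, with 1 unadjusted p under 0.05 over the mu86 double of daf-2(e1370) and 0 in the other comparisons. Of 9 other immune and intestinal regulators the nuclear receptor gene nhr-49 was the 1 called, over the mu86 double of daf-2(e1370) (0.31 ± 0.11, adjusted p = 0.04997), and DESeq2 did not call it there.

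The intestine marker entries showed no common direction beside these lysozyme differences. Of 10 tested, 1 and 2 rose and 3 fell over each double in daf-2(e1370), and 1 rose over each double in the other backgrounds, while the median difference lay between -0.21 and -0.01. In daf-2(e1370), 11.8% and 11.2% of all entries rose over the mg54 and mu86 doubles, and 22.3% and 21.5% changed. Over the doubles of the other backgrounds, 1.7% to 2.51% of all entries rose. The entry that rose in all 6 comparisons was ges-1, which encodes a gut esterase, named here after its values were seen (1.53 ± 0.07 and 1.69 ± 0.07 with daf-2(e1370), 1.02 ± 0.07 and 0.98 ± 0.07 for the weaker allele, 1.12 ± 0.13 and 1.08 ± 0.13 with glp-1(e2141)). Those that fell in daf-2(e1370) were the peptide transporter gene pept-1, the sodium-proton exchanger gene nhx-2 and the protease gene cpr-6. The summed CPM of 13 neuron entries was higher in daf-2(e1370) than in its doubles and WT. It ran from 223 to 305 CPM in daf-2(e1370), against 87.4 to 176 and 102 to 178 CPM in its mg54 and mu86 doubles. In WT it was 148 to 191 CPM, and unc-64 was at 0 in all 50 libraries. In each daf-2(e1370) library 1 of the 13 entries was at 0, but 2 were in each library of WT and these doubles. The sum of daf-2(e1370) thus holds an entry listed at 0 in the other strains. Its part in the higher sum was not tested. Of 11 neuron entries tested 3 rose over each double, 1 rose over WT and 0 fell. Of all entries, 11.8% and 11.2% rose over the mg54 and mu86 doubles and 9.84% over WT. The neuron count over WT is thus near the share of all entries. The part of intestine or neurons in the lysozyme differences was not tested.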

How the data were processed

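The authors deposited 1 table of expected counts, the estimated number of fragments per gene entry and library. Per the submitters' processing notes, reads were handled on build ce10 with tools that include TopHat2 2.0.9, Bowtie2 2.1.0 and Cuffdiff 2.1.1. The use of strand in counting is not stated. Some 72.2% of nonzero values were whole to within 0.02 and the others fractional, so fragments of overlapping or similar genes may be shared. Of the lysozyme entries, lys-8 was whole in 3 of its 50 values and each other entry in all 50. Counts were rounded. Of 34207 entries, 314 that name no gene (0.187 to 0.48% of fragments) were dropped, and 33458 remained after entries of the same name and locus were summed. Loci at 0 in a whole strain but with at least 1000 mean fragments in another strain were left out as not estimated (915 entries in the daf-2 strains and WT, 164 in the glp-1 strains).

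WT and the daf-2 strains (35 libraries), the glp-1 strains (15) and, for effects across both, all 50 were fitted separately with edgeR 4.0.16 (R 4.3.3, limma 3.58.1): TMM scaling, filterByExpr and the robust quasi-likelihood test, with Benjamini-Hochberg adjustment over all entries tested and a threshold of 0.05. SE is the log2 difference divided by the root of F. Intervals at 95% cover the fit's error, and floors (3 counts) cover counting error only. CPM uses each fit's scaled library sizes. Exon lengths came from a WBcel235 annotation and were used for per-kilobase levels alone. In 100 pairs of replicates, chi-square per degree of freedom ran from 7.21 to 177, so no library was counted as a repeat. The fits were tested on simulated data.

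The alternatives were DESeq2 1.42.0, its size factors in edgeR, no filter, the left-out loci kept, a replicate block, only the compared strains, the daf-2(e1370) doubles without replicates 0 and 1, and each library left out. Same-numbered libraries deviated together at every number for daf-2(e1368) with its mg54 double (r = 0.126 to 0.774) and for the 2 daf-2(e1370) doubles (0.635 to 0.849), and in those 2 comparisons the block changed no call. For daf-2(e1368) with its mu86 double r was 0.067 to 0.731, and all 5 libraries correlated best with their own number. In the other pairs of WT and daf-2 strains, r exceeded 0.1 at 1 to 4 of the 5 numbers. The numbers' meaning is not given in the labels. The lysozymes, gene lists and tests were chosen with earlier results of these data known. All 10 lysozymes are named, plus the 3 entries most like each by correlation (shown in part), and from each list the entry with the largest rise and fall among those called with both alleles. Gene and promoter sequences were not used here.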

Additional observations from a re-analysis of the deposited data

Results flagged for a closer look

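With 65 strain groups of 5 libraries examined for a library far from the rest, 5 were found, where chance gives about 1 in 20 groups. lys-1 in replicate 2 of the mg54 double of daf-2(e1368) was at 306.8 CPM, with the other 4 at 240.3 to 255 CPM. The same replicate had lys-4/5/6 at 370.5 CPM, with the others at 298.8 to 302.3 CPM. lys-1 in replicate 2 of the mu86 double of daf-2(e1368) was at 298.1 CPM, with the others at 223.3 to 242.6 CPM. lys-3 was at 0.457 CPM in replicate 4 of the mu86 double of daf-2(e1370), against 0.0941 to 0.184 CPM, a matter of 11 fragments or fewer. lys-3 in glp-1(e2141) replicate 3 was at 74.27 CPM, against 2.98 to 15.3 CPM.

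The daf-16 effect differed between backgrounds by edgeR's test of the difference itself for 3 entries between the daf-2 alleles, by 0.6961 for lys-2, 1.625 for lys-7 and 0.5384 for lys-8 on the log2 scale, each larger in daf-2(e1370). Between daf-2(e1370) and glp-1(e2141) it differed by 1.685 for lys-7 and 0.5181 for lys-8, again larger in daf-2(e1370). These backgrounds differ in temperature and germline as well.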

How the results depend on the processing

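Of 43 lysozyme differences called, 32 kept their call under every alternative run, left-out libraries included, among them each lys-7 call and each lys-2 call in daf-2(e1370). The number of entries called moved from 3 to 1 for the mean of the daf-2(e1370) doubles against WT when only those strains were fitted, from 3 to 5 for the daf-16 effect between the daf-2 alleles with the replicate block, and from 2 to 1 for glp-1(e2141) against its mg54 double with the replicate block, where lys-4/5/6 was lost. Against its mu86 double it moved from 2 to 1 with the replicate block and from 2 to 1 with only those strains fitted, where lys-8 was lost each time. For the mean of the daf-2(e1368) doubles against WT it stayed at 1 with only those strains, but lys-2 was lost and lys-7 gained. The same-numbered glp-1 libraries shared only a number, with 1, 0 and 0 of 5 correlating best with their own. Of the 15 libraries concerned, leaving out 1 gave 0 to 1 entries for the mean of the daf-2(e1368) doubles against WT. Leaving out 1 library of 10 gave 1 to 2 for glp-1(e2141) against its mg54 double and 1 to 3 against its mu86 double.

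The uncalled lys-1 difference of daf-2(e1370) from its mg54 double turned to 0.0022 with the block and 0.0322 with only those strains, and ran from -0.1154 to 0.0609 with 1 library left out. That from its mu86 double turned to -0.0642 without replicates 0 and 1 of the doubles. Other uncalled values crossed 0 with 1 library left out: lys-1 in glp-1(e2141) against mg54 (-0.1619 to 0.0719), lys-3 there (-1.657 to 0.2468), lys-4/5/6 between the daf-2 alleles (-0.1508 to 0.028), lys-7 in the daf-2(e1370) doubles against WT (-0.0562 to 0.1742) and the lys-7 effect between daf-2(e1368) and glp-1(e2141) (-0.0449 to 0.391). With no filter the lys-8 calls in daf-2(e1368) against its doubles (adjusted p = 0.0848 and 0.0636) and the lys-10 call against WT (0.0526) ended. The cause of these moves was not tested. Depth limits lys-3, lys-9 and lys-10 at 20 °C.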
